A study of Mus musculus with 4 samples.

Results

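Amyloid-beta is cut out of the amyloid precursor protein App, and 9 genes of its making and removal were followed here in brain microglia: App itself, the secretase genes Adam10, Bace1, Ncstn, Aph1a, Psenen and Psen2, and the amyloid-degrading protease genes Ide and Mme. They were taken by gene symbol, and all 9 were found among the 49993 genes with a count in each of 4 bulk RNA-seq libraries. The libraries came from CD11b+ cells, isolated with magnetic beads from brains of 10-month-old mice. All of the mice carried the APP/PS1 transgenes, which cause amyloid to build up. In the AD group (n = 2 libraries) the genotype was APP/PS1+ asrij+/+, and in the AD/KO group (n = 2 libraries) it was APP/PS1+ asrij-/-, a constitutive deletion of asrij (Ociad1). There was no group without the transgenes. The labels name neither the promoter of the transgenes nor the number of animals behind a library. They also do not say that replicates came from separate mice, so that the tests measure only the spread between these libraries. CD11b is also carried by other myeloid cells than microglia.

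App is a membrane protein that can be cut along alternative routes. Alpha-secretase, mainly Adam10 in neurons, cuts inside the amyloid-beta sequence, so that no amyloid-beta can form. Beta-secretase, Bace1, cuts at its start, and gamma-secretase, a membrane complex that holds a presenilin, Ncstn, an Aph1 protein and Psenen, then cuts inside the membrane and releases the peptide. The proteases Ide (insulin-degrading enzyme) and Mme (neprilysin) are known to degrade it. In the brain, App and Bace1 are abundant in neurons, whereas microglia are known for taking up amyloid.

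The stretch of mouse App that all of these cuts act on is printed here, since it is the part that decides which enzyme's product is amyloid-beta. It was read from a GENCODE M21 transcript on GRCm38, and the capitals mark the 42 codons of amyloid-beta with 15 bases on either side. These codons lie in exons 14 and 15 of the 16 exons of that transcript, on the minus strand of chromosome 16, with 51 bases at chr16:84965670-84965720 and 75 bases at chr16:84962794-84962868.
App amyloid-beta coding part: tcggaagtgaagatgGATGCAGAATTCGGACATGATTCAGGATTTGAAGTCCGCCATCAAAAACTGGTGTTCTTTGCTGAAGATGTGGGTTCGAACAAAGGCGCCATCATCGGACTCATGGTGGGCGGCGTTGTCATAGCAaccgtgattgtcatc
Beta-secretase cuts where the capitals begin, gamma-secretase near where they end, and alpha-secretase in between. The APP transgene carries sequence of this region, and the sources used here do not state whether its reads count toward App, so that App counts may hold reads of both.

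The libraries held from 13102622 to 19810076 counts. Ociad1 had 50.2 and 63.4 CPM (counts scaled to a common library size) in AD and 38.9 and 32.1 CPM in AD/KO, so that it was lower in the libraries labelled AD/KO but not lost. AD and AD/KO therefore stand for the libraries as labelled. All 12 homeostatic microglia markers had reads in every library, with a summed level of 19403 and 13240 CPM in AD and 19793 and 5723 CPM in AD/KO. The 12 neuron markers summed to 486.8 and 1504 CPM in AD and to 1257 and 3794 CPM in AD/KO, and the 10 astrocyte markers to 1967 and 4668 CPM and to 4851 and 12389 CPM. All 22 of these neuron and astrocyte markers were lowest in AD replicate 1 and highest in AD/KO replicate 2, and none was at 0. The 8 oligodendrocyte markers summed to 1643 and 2635 CPM in AD and to 3921 and 8559 CPM in AD/KO, and the 8 neutrophil markers to 322.8 and 4474 CPM in AD and to 461.6 and 519.4 CPM in AD/KO. The 4 monocyte markers were at 66.3 and 375 CPM against 33.8 and 37.0 CPM, and the 5 border-associated macrophage markers at 124 and 95.3 CPM against 65.4 and 57.5 CPM. Precursors of oligodendrocytes (62.7 to 208 CPM), endothelial cells (44.9 to 61.8), mural cells (14.2 to 53.6), choroid plexus (12.5 to 26.4), B cells (4.78 to 12.1) and T cells (0.218 to 2.27) had low summed levels, with Folr1, Cd3e, Cd3g and Trac at 0 in at least 1 library. In bulk RNA, fewer cells of a type and less RNA per cell cannot be told apart.

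The comparison of AD/KO with AD asked whether these genes differ where asrij is deleted. With the quasi-likelihood test of edgeR and p-values adjusted by Benjamini-Hochberg, 0 of the 9 genes had an adjusted p under 0.05, as did 0% of the 21439 genes tested. At an unadjusted p under 0.05 the count was also 0 of 9, beside 5.0% of all genes. No member passed in DESeq2 either (0 of 9, beside 0.440% of all genes), nor with the replicate number as a block (0 of 9, beside 20.2%). Log2 fold changes were above 0 in 5 of the 9 genes (47.2% of all genes) and below 0 in 4 (52.8%). The median was 0.10, beside −0.05 over all genes. In Psen2 and Mme both AD/KO libraries lay above both AD libraries. That is 2 of 9 genes whose groups did not overlap, beside 42.0% of all genes. With 2 libraries a group, an exact permutation test of a single value cannot give a two-sided p below 0.333.

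**Figure D1:**
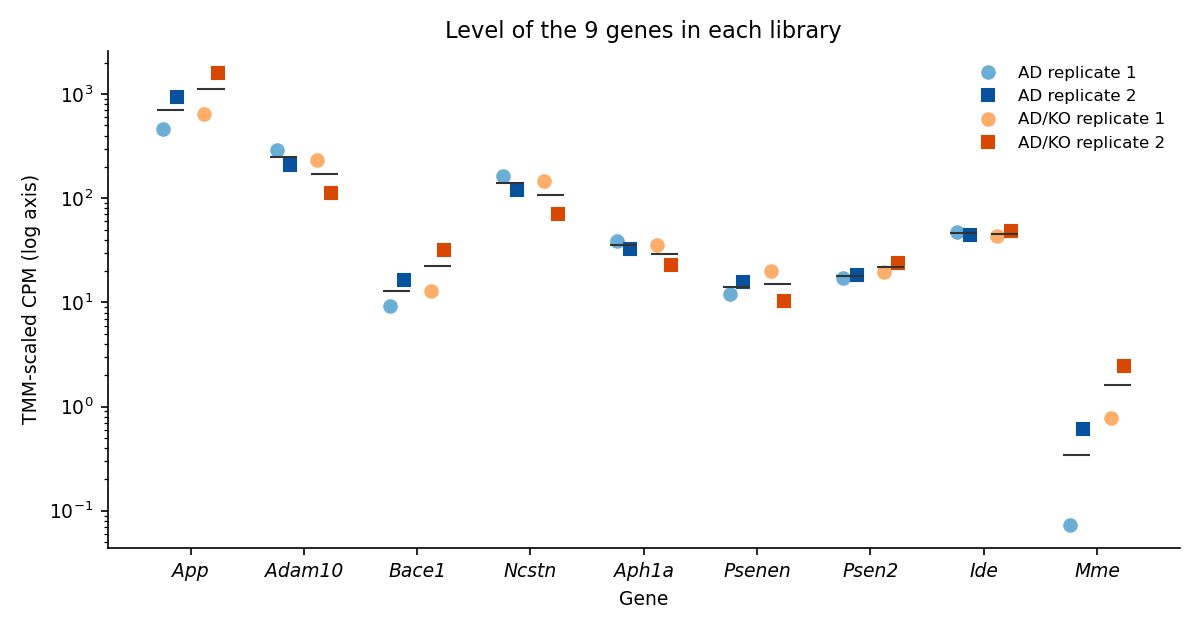
TMM-scaled CPM on a log axis (vertical) of each of the 9 genes (horizontal) in the 4 libraries, with a point for each library and a short line for the mean of each group. App and Bace1 were highest and Adam10, Ncstn and Aph1a lowest in AD/KO replicate 2, while Ide lay between 43.0 and 48.0 CPM in the 4 libraries.

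App (gene ID 11820, chromosome 16, 84952666 to 85175255 on GRCm38.p6, minus strand, protein-coding), the substrate, was counted 6301 and 15230 times in AD and 12245 and 29143 times in AD/KO. These were 457 and 936 CPM in AD and 638 and 1581 CPM in AD/KO. The groups overlapped, with AD replicate 2 above AD/KO replicate 1. Within a group, replicate 2 was 2.05-fold (AD) and 2.48-fold (AD/KO) above replicate 1, a wider gap than the 1.59-fold between the group means. The means were 697 ± 339 CPM (SD, n = 2) and 1110 ± 667 CPM (SD, n = 2). AD/KO minus AD was 0.67 on the log2 scale (SE 0.70, adjusted p = 0.732, edgeR). Leaving out AD/KO replicate 2 gave −0.12, AD replicate 1 gave 0.23, AD replicate 2 gave 1.34 and AD/KO replicate 1 gave 1.24. With the mean level of the neuron and astrocyte markers as a covariate it was −0.49 (SE 0.38). Scaling to the homeostatic microglia markers, which moved the median of all genes to 0.85, gave 1.84.

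Its relatives Aplp1 and Aplp2, which are cut by the same secretases, had the same order of libraries as App. Aplp1 was at 168 and 375 CPM in AD and 295 and 776 CPM in AD/KO, with a log2 difference of 0.98 (SE 0.68). Aplp2 was at 126 and 210 CPM in AD and 158 and 301 CPM in AD/KO, with a log2 difference of 0.45 (SE 0.48). All 3 genes of the APP family thus had values above 0 in the fit to the 4 libraries, but all 3 were below 0 with the neuron and astrocyte covariate and 2 of 3 without AD/KO replicate 2. Of the 3, 0 passed the adjusted threshold.

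Bace1 (gene ID 23821, chromosome 9, 45838545 to 45862484, plus strand, protein-coding), the beta-secretase, had 128 and 267 reads in AD and 245 and 591 reads in AD/KO. Its level was 9.29 and 16.4 CPM in AD and 12.8 and 32.1 CPM in AD/KO, so that the groups overlapped and AD/KO replicate 2 stood highest, as for App. The means were 12.9 ± 5.04 CPM (SD, n = 2) and 22.4 ± 13.6 CPM (SD, n = 2). The difference of 0.80 on the log2 scale (SE 0.58) had an adjusted p of 0.682 in edgeR. Without AD/KO replicate 2 it was 0.00074, without AD replicate 1 it was 0.43, and without AD replicate 2 or AD/KO replicate 1 it was 1.33 and 1.37. With the neuron and astrocyte level as a covariate it was −0.30 (SE 0.32). Scaling to the homeostatic microglia markers, which moved the median of all genes to 0.85, gave 1.98. Exons of Rnf214 on the other strand cover 15.4% of the exon length of Bace1, and whether counting used strand is not stated in the sources used here, so that these reads may be shared. Bace2, the other beta-secretase gene, was at 0.218 and 0.615 CPM in AD and 0.209 and 0.868 CPM in AD/KO, from 3 to 16 reads a library. Both beta-secretase genes had log2 differences above 0, and both were below 0 with the neuron and astrocyte covariate. Of these 2 genes, 0 passed the adjusted threshold.

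Adam10 (gene ID 11487, chromosome 9, 70678944 to 70780229, plus strand, protein-coding), the alpha-secretase, had another order of libraries. It had 4042 and 3390 reads in AD and 4478 and 2048 reads in AD/KO. Its level was 293 and 208 CPM in AD and 233 and 111 CPM in AD/KO. AD replicate 1 was highest and AD/KO replicate 2 lowest, and AD/KO replicate 1 lay between the AD libraries. The means were 251 ± 60.1 CPM (SD, n = 2) and 172 ± 86.5 CPM (SD, n = 2). On the log2 scale the difference was −0.54 (SE 0.49), and its adjusted p in edgeR was 0.708. Leaving out AD/KO replicate 2 gave −0.093, AD replicate 1 gave −0.28 and AD/KO replicate 1 gave −1.12. It was 0.12 (SE 1.07) with scaling to the homeostatic microglia markers and 0.12 (SE 0.30) with the neuron and astrocyte level as a covariate. That scaling moved the median of all genes to 0.85. Relative to the median of all genes, Adam10 stood at −0.72 with it and at −0.49 in the reported fit.

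Adam17, which also has alpha-secretase activity, had the same order, with 210 and 141 CPM in AD and 169 and 70.8 CPM in AD/KO. Adam9, a further metalloprotease, was nearly level, at 57.9 and 55.9 CPM in AD and 51.0 and 50.6 CPM in AD/KO, though the groups did not overlap and AD/KO was lower (21.7% of all genes). Log2 fold changes of the 3 alpha-secretase genes lay between −0.55 and −0.16, and 0 of 3 passed the adjusted threshold. They were above 0 in 3 of 3 with the homeostatic scaling, which moved the median of all genes to 0.85. With the neuron and astrocyte covariate 2 of 3 were above 0. Of the 6 TspanC8 tetraspanins, which carry Adam10 through the cell, 5 were tested, 4 with a value above 0 and 1 below (2 and 3 with the neuron and astrocyte covariate), and 0 passed. Tspan14, at 221 and 156 CPM in AD and 219 and 77.7 CPM in AD/KO, was the most abundant by CPM and the 1 below 0, with −0.34 (SE 0.58). Tspan5, at 40.3 and 75.4 CPM in AD and 53.9 and 104 CPM in AD/KO, had 0.45 (SE 0.49). Tspan17, at 5.52 and 16.8 CPM in AD and 11.8 and 28.2 CPM in AD/KO, had 0.84 (SE 0.71).

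The gamma-secretase genes did not share 1 order. Of the 6 listed genes 3 had values above 0 and 3 below, with a median of −0.01, and 0 passed the adjusted threshold. With scaling to the homeostatic markers, which moved the median of all genes to 0.85, 6 of 6 were above 0. Ncstn (gene ID 59287, chromosome 1, 172066013 to 172082789, minus strand, protein-coding), nicastrin, the large subunit that receives the substrate, had 2231 and 1935 reads in AD and 2778 and 1314 in AD/KO. Its level was 162 and 119 CPM in AD and 145 and 71.3 CPM in AD/KO, with the same order of libraries as Adam10 and overlapping groups. Its log2 fold change was −0.38 (SE 0.45, adjusted p = 0.761 in edgeR), and 0.055 without AD/KO replicate 2. It was −0.14 without AD replicate 1 and −0.93 without AD/KO replicate 1. Exons of Copa on the other strand cover 4.91% of its exon length.

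Aph1a (gene ID 226548, chromosome 3, 95893921 to 95898592, plus strand, protein-coding), the scaffold subunit, had 38.9 and 32.4 CPM in AD and 35.7 and 22.7 CPM in AD/KO. The order was again that of Adam10, and AD/KO replicate 1 lay between the AD libraries. It had a log2 fold change of −0.29 (SE 0.35, adjusted p = 0.763 in edgeR), and of 0.011 without AD/KO replicate 2. It was −0.16 without AD replicate 1 and −0.60 without AD/KO replicate 1. Its transcript shares 734 bases at 100% identity with Gm15429, which had 8 to 26 reads, and 347 bases at 99.7% identity with Jagn1, so that some of its reads could have been counted elsewhere. Exons of Car14 on the other strand cover 12.9% of its exon length.
The other scaffold genes were lower in CPM. Aph1b was at 3.27 and 9.40 CPM in AD and 6.46 and 14.0 CPM in AD/KO, in the order of App rather than of Aph1a. Aph1c was at 5.15 and 8.24 CPM in AD and 5.32 and 6.95 CPM in AD/KO, with overlapping groups.

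Psenen (gene ID 66340, chromosome 7, 30561865 to 30563627, minus strand, protein-coding), the small subunit needed for the complex to mature, followed neither order. It was at 12.1 and 15.9 CPM in AD and 19.8 and 10.3 CPM in AD/KO. The AD/KO libraries were thus the highest and the lowest of the 4, and the AD libraries lay between them. Its log2 difference of 0.10 (SE 0.45, adjusted p = 0.930 in edgeR) became 0.51 when AD/KO replicate 2 was left out, 0.38 for AD replicate 2, −0.082 for AD replicate 1 and −0.39 for AD/KO replicate 1. Its transcript shares 306 bases at 100% identity with Gm12396, for which no count was used here, and 307 bases at 97.1% identity with Gm20369, which had 2 to 6 reads, so that some of its reads could have been lost. Besides, exons of U2af1l4 on the other strand cover 9.33% of its exon length.

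Psen2 (gene ID 19165, chromosome 1, 180227004 to 180263467, minus strand, protein-coding), a presenilin and so a catalytic subunit, was at 17.3 and 18.4 CPM in AD and 19.6 and 23.8 CPM in AD/KO. Both AD/KO libraries were above both AD libraries, which was the case in 20.3% of all genes tested. AD/KO replicate 1 was only just above AD replicate 2, with 376 and 300 reads and 95% Poisson intervals of 17.7 to 21.7 CPM and 16.4 to 20.6 CPM that overlap (counting error only). The means were 17.9 ± 0.824 CPM (SD, n = 2) and 21.7 ± 2.98 CPM (SD, n = 2). The log2 fold change was 0.28 (SE 0.31), and edgeR gave an adjusted p of 0.742. It was above 0 in each of the 11 alternatives run, from 0.10 with the neuron and astrocyte covariate to 1.29 with scaling to the homeostatic microglia markers. That scaling raised the median of all genes by 0.89, and relative to that median Psen2 stood at 0.44. Since the groups did not overlap, leaving out 1 library could hardly have turned the sign.

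Ide (gene ID 15925, chromosome 19, 37268743 to 37334544, minus strand, protein-coding) had 652 and 723 reads in AD and 824 and 885 reads in AD/KO. Its level was 47.3 and 44.4 CPM in AD and 43.0 and 48.0 CPM in AD/KO. The highest library was 1.12-fold above the lowest, the narrowest range of the 9 genes, where App and Bace1 spanned 3.46-fold and 3.45-fold. The means were 45.9 ± 2.04 CPM (SD, n = 2) and 45.5 ± 3.58 CPM (SD, n = 2). The log2 difference was −0.01 (SE 0.26) and its adjusted p in edgeR 0.987, which does not show that the groups are equal. The sign turned with the scaling, to 0.037 with the size factors of DESeq2 and 0.98 with scaling to the homeostatic markers. With the latter the median of all genes was 0.85.

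Mme (gene ID 17380, chromosome 3, 63295211 to 63383713, plus strand, protein-coding) was near the limit of detection. Its counts were 1 and 10 reads in AD and 15 and 45 reads in AD/KO. These were 0.0726 and 0.615 CPM in AD and 0.782 and 2.44 CPM in AD/KO. Both AD/KO libraries were above both AD libraries (20.3% of all genes), but the 95% Poisson intervals of AD replicate 2 (0.295 to 1.13 CPM) and AD/KO replicate 1 (0.438 to 1.29 CPM) overlapped. Over both libraries of a group, 60 reads stood against 11, a scaled ratio of 4.36 with an exact 95% counting interval of 2.27 to 9.19 that leaves out the spread between libraries. On the log2 scale the fitted difference was 2.17 (SE 1.14), and its adjusted p in edgeR was 0.680. Leaving out AD replicate 1 gave 1.36, AD replicate 2 gave 4.39 and AD/KO replicate 2 gave 1.15, and it was 0.46 with the neuron and astrocyte covariate. Stretches of the Mme transcript match 11 other genes at 95% identity or more, over at least 100 bases. The cell source of these reads was not tested.

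The list of amyloid-degrading proteases, which holds Ide and Mme, had values on both sides of 0. Of its 16 genes, 15 were tested, 6 with a value above 0 and 9 below, with a median of −0.01 and 0 past the adjusted threshold. With the size factors of DESeq2 the split was 9 above and 6 below. Ctsb, the lysosomal cathepsin B, had the highest CPM of the list, with 1376 and 1290 CPM in AD and 1028 and 500 CPM in AD/KO. Both AD/KO libraries were below both AD libraries (21.7% of all genes), and its log2 fold change was −0.80 (SE 0.58). Mmp9, a metalloprotease stored in neutrophils, was at 44.9 and 217 CPM in AD and 38.2 and 47.2 CPM in AD/KO. AD replicate 2 stood alone in it, and the 8 neutrophil markers summed to 4474 CPM in that library and to 323 to 519 CPM in the other 3. Their part in the Mmp9 value was not tested. Ece1, an endothelin-converting enzyme, was at 45.7 and 71.4 CPM in AD and 52.9 and 108 CPM in AD/KO, in the order of App.

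Among inhibitors of these proteases, 2 of the 6 genes tested had a value above 0 and 4 below, with a median of −0.14 and 0 past the adjusted threshold. With the size factors of DESeq2 3 were above 0 and 3 below. Cst3 (cystatin C) was at 3332 and 3149 CPM in AD and 3544 and 1834 CPM in AD/KO. Serpine2 was level at 256 to 279 CPM in the 4 libraries. Timp2 was at 317 and 254 CPM in AD and 255 and 142 CPM in AD/KO. Timp3, named after its value was seen, was the 1 gene of all these lists with an unadjusted p under 0.05 in edgeR. That is 1 of the 59 genes tested in them, beside 5.0% of all genes. It was at 21.0 and 42.7 CPM in AD and 59.4 and 148 CPM in AD/KO. Its log2 difference of 1.70 (SE 0.60) had an unadjusted p of 0.0373 and an adjusted p of 0.680 in edgeR.

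Of 19 genes for App sorting and adaptors, 9 had a value above 0 and 10 below, with a median of −0.01 and 0 past the threshold. Lrp1, a receptor that binds App and takes up amyloid-beta, was at 3736 and 2792 CPM in AD and 3652 and 2842 CPM in AD/KO. Itm2b, an inhibitor of App processing, was at 961 and 864 CPM in AD and 928 and 509 CPM in AD/KO. Sorl1, a sorting receptor that keeps App away from Bace1, was at 197 and 436 CPM in AD and 255 and 503 CPM in AD/KO, in the order of App. Over all lists, 24 of the 50 tested genes other than the 9 had a value above 0 and 26 below, with a median of −0.01. The groups did not overlap in 10 with both AD/KO libraries higher (20.3% of all genes) and in 11 with both lower (21.7%). With scaling to the homeostatic microglia markers, which moved the median of all genes to 0.85, the count above 0 was 44 of 50.

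With the replicate number as a block, 12 of the 50 genes (24%) had an adjusted p under 0.05 in edgeR, beside 20.2% of all genes. Of the 12, 9 were higher in AD/KO and 3 lower. Of the 4333 genes called over the whole table, 2878 were higher and 1455 lower. The block fit leaves only 1 residual degree of freedom. The labels do not state that a number pairs libraries, and these genes were named after their values were seen. They were Aplp1 in the APP family (0.93 on the log2 scale in that fit) and Tspan17 among the TspanC8 genes (0.91). Among the degrading proteases 5 were called, with Ece2 (2.44), Htra1 (1.55) and Thop1 (1.08) higher and Mmp2 (−1.72) and Plau (−1.41) lower. Timp3 (1.65) was the inhibitor called. Of the sorting and adaptor genes 4 were called, with Apba2 (1.70), Apbb1 (1.15) and Apba3 (0.76) higher and Gsap (−1.05) lower. In the fit without the block the adjusted p of these 12 genes ran from 0.680 to 0.701.

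**Figure D2:**
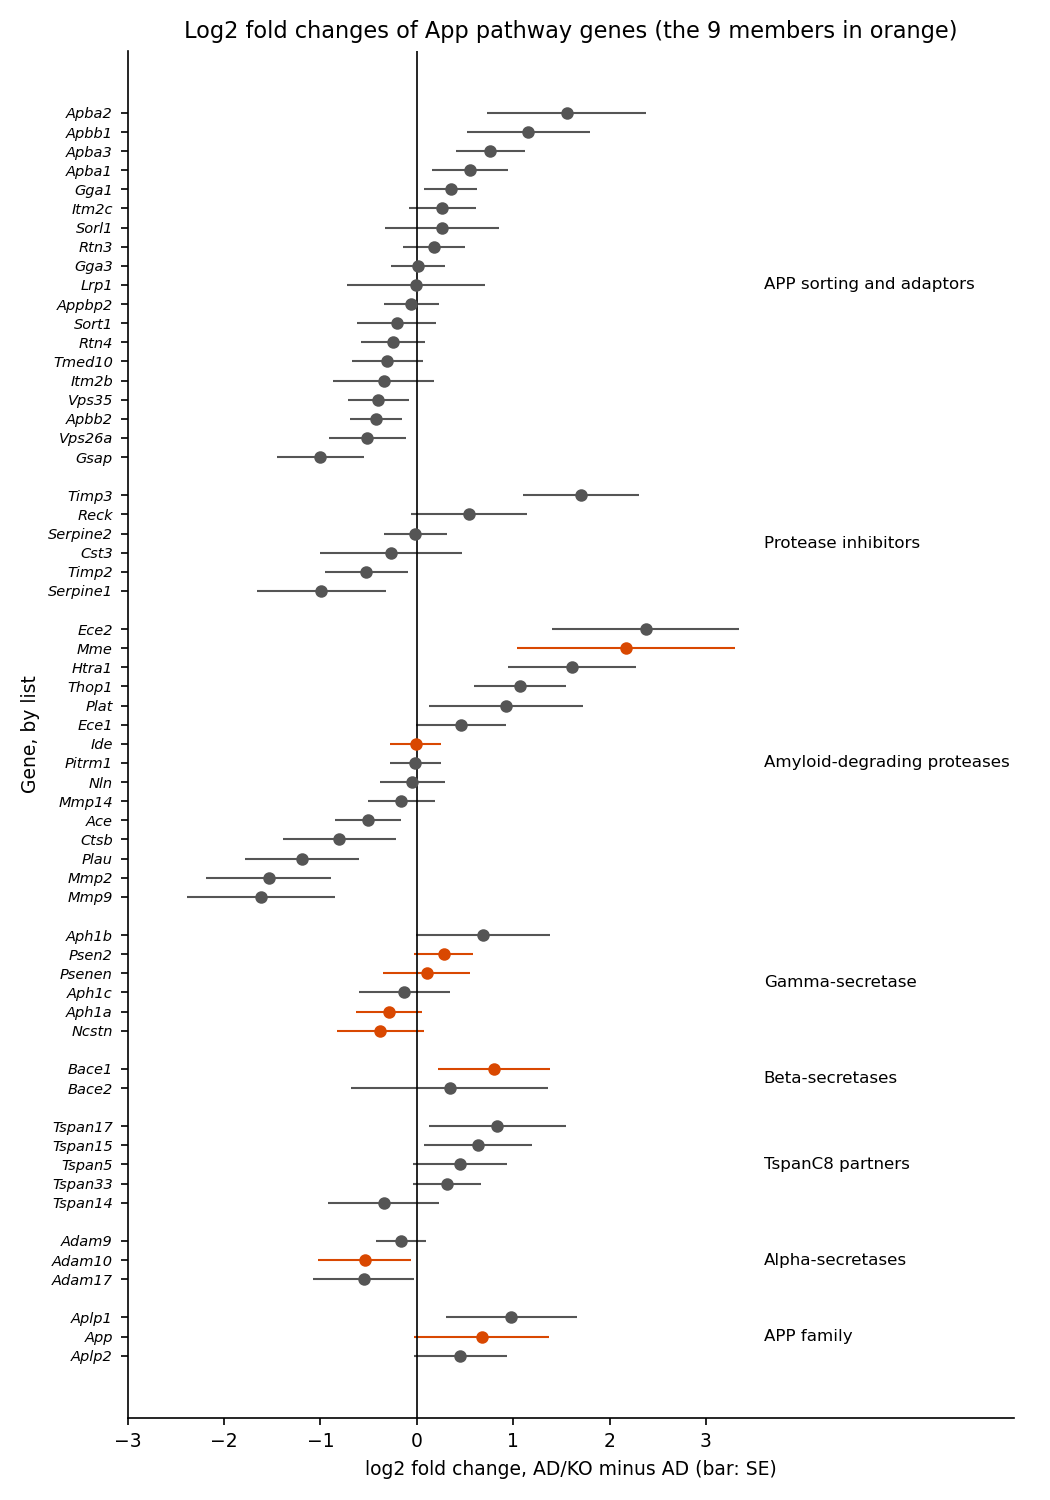
Log2 fold change of AD/KO minus AD (horizontal, bars are standard errors of the edgeR fit) for each tested gene of the App pathway lists (vertical), with the 9 followed genes in orange. The 9 genes lie between −0.54 (Adam10) and 2.17 (Mme), and 0 of the genes drawn passed the adjusted threshold.

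Across the 4 libraries the 9 genes fell into different orders. In App and Bace1 AD replicate 1 was lowest, followed by AD/KO replicate 1, then AD replicate 2 and then AD/KO replicate 2. The mean of the 22 neuron and astrocyte markers had the same order, but its 2 middle libraries were nearly level (−0.02 and 0.05). In mean log2 CPM, AD/KO replicate 1 was below AD replicate 2 for the neuron markers (5.55 and 5.74). For the astrocyte markers it was above (7.41 and 7.34). For the markers of oligodendrocytes (7.02 and 7.21), their precursors (4.24 and 5.20) and mural cells (1.55 and 2.04) it was below again. In mean log2 CPM these lists, too, were lowest in AD replicate 1 and highest in AD/KO replicate 2. The order of App was thus not particular to the neuron and astrocyte markers. Both AD/KO libraries were above both AD libraries in 9 of the 10 astrocyte and 2 of the 12 neuron markers (20.3% of all genes). Adam10, Ncstn and Aph1a had the exact reverse of the order of App and Bace1, which was also the order of the mean of the homeostatic microglia markers. Psen2, Psenen, Ide and Mme had other orders. The neuron and astrocyte markers spanned 2.87 on the log2 scale between the lowest and the highest library, and the homeostatic markers 1.83. App spanned 1.79, Bace1 1.77, Adam10 1.40, Ncstn 1.18, Aph1a 0.772 and Ide 0.160. The part of these other cells in the levels of the 9 genes was not tested. The fit with the neuron and astrocyte covariate leaves 1 residual degree of freedom, too few to decide it.

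**Figure D3:**
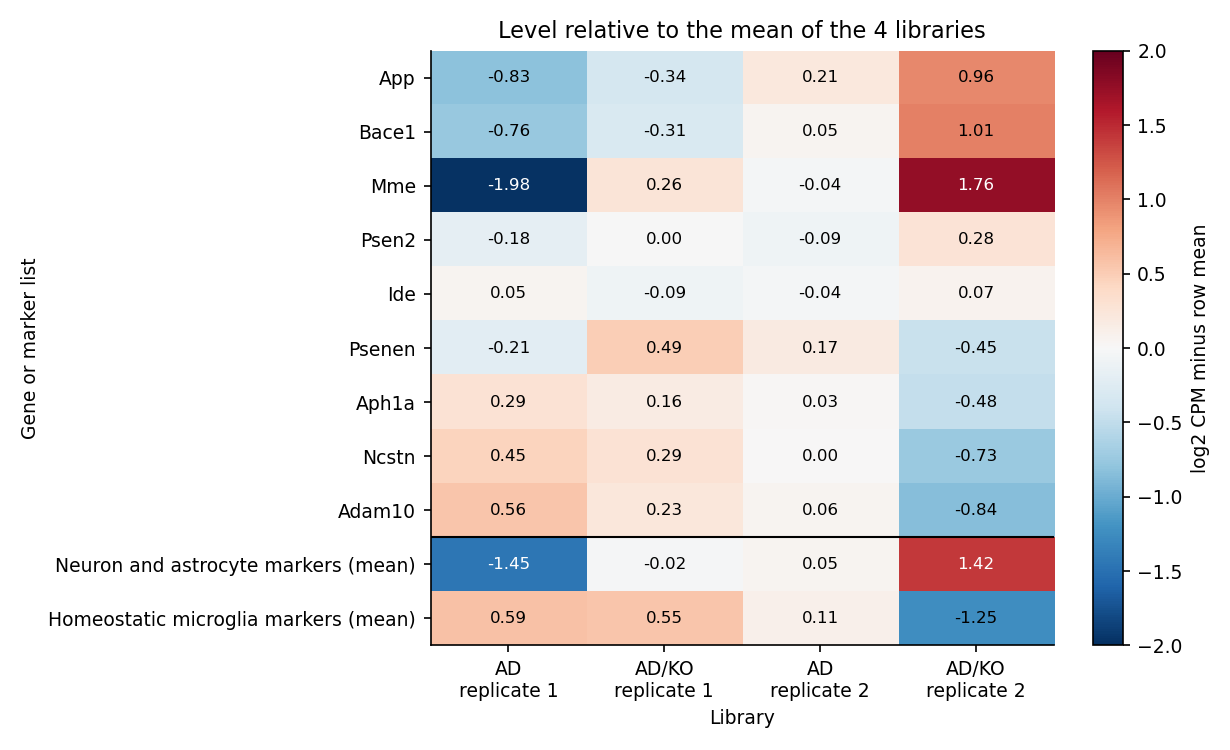
Log2 CPM of the 9 genes and the mean of 2 marker lists (vertical), minus each row's mean over the 4 libraries (horizontal), with red above and blue below the mean. App stands at 0.96 and Adam10 at −0.84 in AD/KO replicate 2, where the neuron and astrocyte markers stand at 1.42 and the homeostatic microglia markers at −1.25.

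Ratios within a library do not depend on how libraries are scaled. The number of App reads for each Bace1 read was 49.2 and 57.0 in AD and 50.0 and 49.3 in AD/KO. This ratio varied 1.16-fold over the 4 libraries while both genes varied more than 3-fold. Adam10 reads for each Bace1 read, by contrast, numbered 31.6 and 12.7 in AD and 18.3 and 3.47 in AD/KO, a 9.11-fold span. The log2 ratio averaged 4.32 ± 0.930 (SD, n = 2) in AD and 2.99 ± 1.70 (SD, n = 2) in AD/KO, with overlapping groups. App reads for each Adam10 read numbered 1.56 and 4.49 in AD and 2.73 and 14.2 in AD/KO, a span of 9.13-fold with overlapping groups. App reads for each Ide read were 9.66 and 21.1 in AD and 14.9 and 32.9 in AD/KO.

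Within gamma-secretase, the ratio of Ncstn to Aph1a varied least of the 3 pairs taken. Ncstn reads for each Aph1a read were 4.16 and 3.67 in AD and 4.06 and 3.14 in AD/KO, a 1.33-fold span. Psenen had 1 read for 13.4 and 7.50 Ncstn reads in AD and for 7.31 and 6.95 in AD/KO. Both AD/KO libraries thus had fewer Ncstn reads for each Psenen read than both AD libraries, with AD replicate 1 apart from the other 3. Psen2 had 1 read for 9.37 and 6.45 Ncstn reads in AD and for 7.39 and 2.99 in AD/KO, with overlapping groups. Mme reads for each Ide read were higher in both AD/KO libraries, but rest on 1 Mme read in AD replicate 1.

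**Figure D4:**
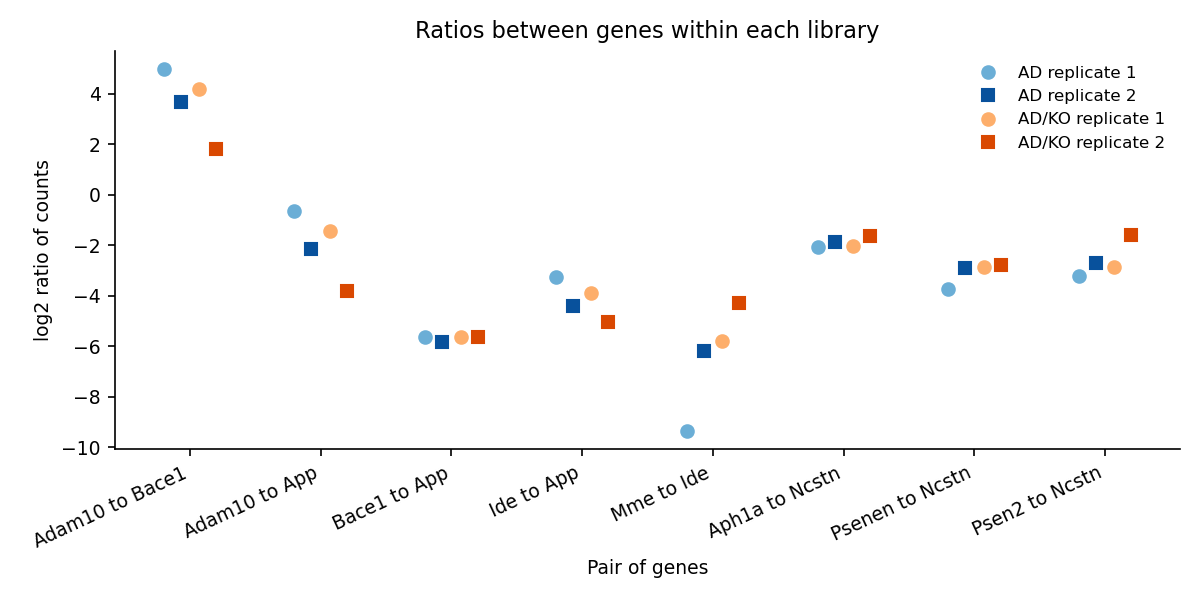
Log2 ratio of read counts (vertical) for 8 pairs of the genes (horizontal), with a point for each library. The Bace1 to App ratio lies between −5.83 and −5.62 in the 4 libraries, while Adam10 to Bace1 runs from 1.79 in AD/KO replicate 2 to 4.98 in AD replicate 1.

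Levels can be compared between genes only per length. With CPM divided by the length of the union of annotated exons in kilobases, the order by mean over the 4 libraries was App at 69.5, Adam10 at 43.1, Ncstn at 31.3, Psenen at 11.4, Aph1a at 9.40, Ide at 6.09, Psen2 at 4.57, Bace1 at 2.78 and Mme at 0.0847 CPM per kilobase. Neighbours whose ranges over the 4 libraries overlapped were App and Adam10, Adam10 and Ncstn, Psenen and Aph1a, and Psen2 and Bace1. The ranges of Ncstn and Psenen, Aph1a and Ide, Ide and Psen2, and Bace1 and Mme did not overlap. In AD replicate 1 both Adam10 (59.7 CPM per kilobase) and Ncstn (40.7) were above App (35.2), whereas App was first in the other 3 libraries, with 72.0 in the other AD library and 49.1 and 122 in the AD/KO libraries. Bace1 was thus the lowest secretase gene of the 9 per length in each library. With the longest coding transcript as the length, Ide and Psen2 changed places in the order by mean, and the other 7 genes kept theirs. In AD replicate 1 App (56.0 CPM per kilobase) then stood just above Ncstn (55.8), with Adam10 (63.9) still first. The ranges of Ncstn and Psenen then overlapped, as did those of Aph1a and Psen2 and of Psen2 and Ide. Those of Psenen and Aph1a no longer did.

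Likeness to App and Adam10 was measured as the root mean square difference in log2 CPM, each centred over the 4 libraries. Among 8517 other genes with a mean of at least 20 CPM, the 3 most like App were 1700025G04Rik at 0.042, Tulp3 at 0.061 and Tmem132a at 0.066. In Tmem132a, for example, the level was 109 and 197 CPM in AD and 143 and 364 CPM in AD/KO. Bace1, at 0.090, ranked number 16 when the other members were added to the candidates. The 3 most like Adam10 were Gm38865 at 0.020, Tbc1d23 at 0.021 and Sgpl1 at 0.025, and Ncstn, at 0.088, ranked number 162. Under a difference of 0.2 there were 210 genes for App and 1091 for Adam10, so that with 4 libraries many genes had nearly the same profile as each.

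**Figure D5:**
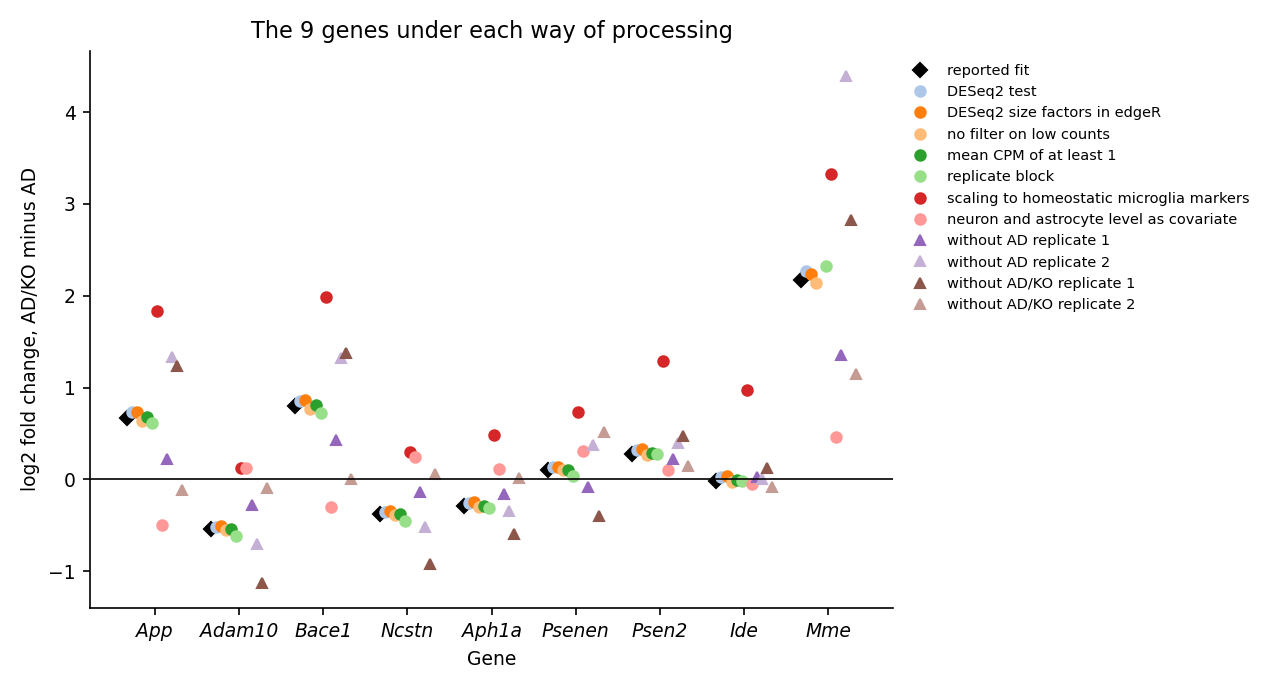
Log2 fold change of AD/KO minus AD (vertical) of each of the 9 genes (horizontal) in the reported edgeR fit (black diamond), under 7 other ways of processing (circles) and with each library left out in turn (triangles). App and Bace1 fall below 0 with the neuron and astrocyte level as covariate (−0.49 and −0.30), whereas Psen2 and Mme stay above 0 in each fit shown.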

How the data were processed

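The authors deposited 1 table of raw read counts by gene symbol for each of 4 libraries. Per the submitters' processing notes, HISAT2, featureCounts (Subread) and build mm10 were used, and the notes also name DESeq2 1.30.0. Counting settings, strand and annotation are not given in the sources used here. Broken lines (11 in each table) left 4 genes without a count, none of them followed here. No sample column was unused (0). Differential expression was tested on all genes with edgeR 4.0.16 in R 4.3.3: filterByExpr (minimum count 10, minimum total 15), TMM scaling, quasi-likelihood F-test, 4 libraries, no covariates, Benjamini-Hochberg threshold 0.05. The standard error is the log2 fold change divided by the square root of F. All 9 genes passed the filter. DESeq2 1.42.0 was an alternative. Near-identical transcripts were searched with BLAST 2.17.0 at 95% identity over 100 bases. Lengths and overlaps came from GENCODE M21, coordinates from RefSeq GRCm38.p6, counted from 1. On simulated counts, 72% of 200 genes changed by 3 on the log2 scale were recovered among 20733 genes tested. Of the 154 genes called there, 6.49% were false. These shares hold for the simulated setting only. Intervals cover counting error only.

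The 9 genes were named by rule, as were the 3 other genes of highest mean CPM in each list and the 3 genes most like App and Adam10. Members and lists were chosen with earlier results of these data known. Lists fixed for the comparison were the APP family, alpha-secretases, TspanC8 partners, beta-secretases, gamma-secretase, degrading proteases, their inhibitors and sorting genes, with marker lists of other cells.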

Additional observations from a re-analysis of the deposited data

How the results depend on the processing

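Of 98 values of the 9 genes under alternatives, 79 kept direction and stayed on the same side of the threshold and 19 changed direction. None passed, and the smallest adjusted p was 0.0553 (Mme, edgeR quasi-likelihood test with the replicate number as a block). The number of all genes called was 0 in the reported fit (1072 at an unadjusted p under 0.05), 88 with DESeq2 (38 higher, 50 lower) and 4333 with the replicate block, and ran from 0 to 524 with 1 library left out, 524 without AD replicate 2 and 48 without AD replicate 1. The cause was not tested. The labels do not say that a replicate number pairs libraries. Across 19204 genes, the distance of AD replicate 1 from its group mean correlated at 0.71 with that of AD/KO replicate 1. With 2 libraries a group, swapping the numbers within either group would only turn the sign of this value. It therefore cannot tell whether replicate numbers pair libraries. In the replicate block fit, which leaves 1 residual degree of freedom, 0 of the 9 genes passed the adjusted threshold (20.2% of all genes did). App, Bace1, Adam10 and Mme had an unadjusted p under 0.05 in that edgeR fit, as did 8028 of the 21439 genes tested. Their log2 fold changes were 0.62, 0.72, −0.62 and 2.33.

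Scaling to the homeostatic microglia markers moved the median of the 9 genes from 0.10 to 0.98 and turned Ncstn (0.30), Aph1a (0.48), Adam10 (0.12), Ide (0.98) and Ociad1 (0.15) above 0. Relative to the median of all genes, which that scaling raised by 0.89, Adam10 stood at −0.72, Ncstn at −0.55, Aph1a at −0.36 and Psenen at −0.12. Above that median were Mme at 2.47, Bace1 at 1.14, App at 0.99, Psen2 at 0.44 and Ide at 0.13. With the neuron and astrocyte level as a covariate, which leaves 1 residual degree of freedom, App (−0.49), Bace1 (−0.30), Ncstn (0.24), Aph1a (0.11) and Adam10 (0.12) changed direction. The SEs of these values ran from 0.25 (Aph1a) to 0.38 (App). Ide was 0.028 with DESeq2 and 0.037 with its size factors. With 1 library left out, where the lone library is assumed to vary like the other group, the median of the 9 ran from 0.011 to 0.38, App from −0.12 to 1.34, Ncstn from −0.93 to 0.055, Aph1a from −0.60 to 0.011, Psenen from −0.39 to 0.51 and Ide from −0.084 to 0.12. Mme was not tested at a mean of at least 1 CPM.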
